A study of Mus musculus with 4 samples.

Results

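The genes described here are 31 marker genes of macrophages and related myeloid cells, followed in whole pancreatic islets of mice. They were chosen by symbol, and each of the 31 matched 1 row of a table of 52636 genes. The table holds 4 RNA-seq libraries of total RNA from isolated islets, 2 from wild-type mice (control) and 2 from Tspan7 knockout mice, given as Tspan7 y/- in the growth protocol. Tspan7 lies on the X chromosome and encodes a tetraspanin of the plasma membrane, and the study asks what its loss does to beta-cell exocytosis. The design text of the series uses the abbreviation KD, but the genotype labels of both mutant samples read KO, and these labels were followed. The labels name neither an age nor a strain, and they do not say which cells lose the gene, nor whether islets of several animals were pooled. No label ties the replicates to separate animals, so p-values reflect the spread among these libraries, which may be technical.

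Macrophages are the main leukocytes of resting mouse islets. They lie along the capillaries, take up secretory granules released by beta cells, and present peptides on class II molecules. Their development depends on the transcription factor PU.1 and their survival on signals through the receptor Csf1r. They recognise targets through Fc receptors, C1q and scavenger receptors, and they break down what they engulf in lysosomes.

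The targeted gene matched the labels. Tspan7 (ENSMUSG00000058254) had 1924 and 1795 counts in control replicates 1 and 2 and 3 and 2 counts in knockout replicates 1 and 2. Libraries held 7855665 to 9377220 counts, so that 3 counts, taken as the detection floor, stood for 0.312 to 0.398 CPM, counts scaled by library size. Counts of the 31 genes were a small part of these libraries, which does not measure all macrophage RNA. The 31 genes summed to 2278 and 2146 counts in control replicates 1 and 2, against 1890 and 1394 in knockout replicates 1 and 2. As shares these were 0.0262% (95% Clopper-Pearson interval 0.0251% to 0.0273%) and 0.0235% (0.0225% to 0.0245%) of the control libraries, against 0.0202% (0.0193% to 0.0211%) and 0.0177% (0.0168% to 0.0187%) of the knockout libraries. These intervals cover counting error only, because the reads carried no molecular identifiers. In bulk RNA a smaller number of macrophages and less RNA per macrophage cannot be told apart.

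Gene starts of macrophage genes are known for short PU.1 sites, so the promoters were read for the letters of such sites. RefSeq windows (build GRCm38.p6) were matched by symbol for 24 of the 31 genes, and the 250 bases before each annotated start were searched on both strands. The letters GAGGAAG, taken as a PU.1 site, occurred before 6 of the 24 genes (25%) and before 12% of all 27025 genes with a window. The composite of a PU.1 and an interferon regulatory factor site (GGAANNGAAA) occurred in 1 member, against 2.68% of all genes. An interferon-stimulated response element (GAAANNGAAA), whose letters can overlap those of the composite, occurred in 2 members, against 3.46% of all genes. A C/EBP site (TTGCGCAA) occurred in none of the 24, against 0.185% of all genes. The matches are shown with their neighbouring bases, each written along the strand on which the motif reads, with the match in capitals. They describe letters in a window and do not show binding.
Laptm5, PU.1, chr4:130913267-130913293, minus strand, 39 bases before the start: gaacaaaaaaGAGGAAGccacaggctg
C1qc, PU.1, chr4:136893092-136893118, plus strand, 194 bases before the start: gtgccaaaatGAGGAAGtgtctgccgt
Fcgr3, PU.1, chr1:171059394-171059420, plus strand, 7 bases before the start: actacaaaaaGAGGAAGgaaatggact
Fcgr1, PU.1, chr3:96294009-96294035, plus strand, 56 bases before the start: gattagaaaaGAGGAAGgaagttgcca
Trem2, PU.1, chr17:48346350-48346376, minus strand, 41 bases before the start: gtgagggaggGAGGAAGgaaaggaggc
Mrc1, PU.1, chr2:14229368-14229394, minus strand, 36 bases before the start: aaggaggacaGAGGAAGctgtcccttt
Mrc1, PU.1, chr2:14229236-14229262, minus strand, 168 bases before the start: taaggcacagGAGGAAGgggagagagg
Fcgr2b, composite, chr1:170976087-170976116, plus strand, 35 bases before the start: gtccaaatggGGAAGTGAAAagaaacggtc
Ctss, response element, chr3:95526755-95526784, plus strand, 21 bases before the start: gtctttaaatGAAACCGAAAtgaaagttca
Aif1, response element, chr17:35176190-35176219, minus strand, 157 bases before the start: ttttaaaaaaGAAAAAGAAAagagaaaaca

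The upstream windows of 3 abundant members are given in full, since their levels differ in how they sit between the groups. Knockout libraries lay below control libraries for Ctss and Mpeg1 and among them for C1qb. Of these 3, Ctss held a match, in capitals, close to its start, and the other windows held none of the 4 motifs. The windows of Ptprc and Lyz2, which were also lower, held none either. A link between matches and levels was not tested. The Ctss window lies at chr3:95526536-95526785 on the plus strand, that of Mpeg1 at chr19:12460520-12460769 on the plus strand, and that of C1qb at chr4:136886201-136886450 on the minus strand.
Ctss: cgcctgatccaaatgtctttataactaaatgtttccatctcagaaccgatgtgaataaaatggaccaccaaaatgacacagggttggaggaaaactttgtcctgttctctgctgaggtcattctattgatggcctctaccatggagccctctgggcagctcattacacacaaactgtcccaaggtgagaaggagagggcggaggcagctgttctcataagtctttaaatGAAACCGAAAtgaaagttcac
Mpeg1: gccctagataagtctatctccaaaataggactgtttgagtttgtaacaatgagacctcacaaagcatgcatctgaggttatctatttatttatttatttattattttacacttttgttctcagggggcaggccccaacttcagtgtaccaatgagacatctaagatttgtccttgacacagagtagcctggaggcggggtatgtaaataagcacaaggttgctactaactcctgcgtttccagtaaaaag
C1qb: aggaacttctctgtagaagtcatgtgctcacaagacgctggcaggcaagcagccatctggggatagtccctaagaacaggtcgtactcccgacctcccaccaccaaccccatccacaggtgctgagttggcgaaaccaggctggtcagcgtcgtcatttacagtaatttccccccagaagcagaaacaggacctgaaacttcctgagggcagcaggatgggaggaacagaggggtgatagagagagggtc

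Defining macrophage genes were present, and those of neutrophils and mast cells were at or near 0. Csf1r, the F4/80 gene Adgre1, Cd68, Mpeg1 and the 3 C1q chain genes were detected in all 4 libraries, with 11 to 237 counts each. Neutrophil genes were at the floor, with 0 to 4 summed counts per library over 10 genes, and S100a8, S100a9, Elane, Cxcr2, Retnlg and Mmp8 were at 0 in every library. Of 7 mast cell genes 6 were at 0 everywhere (Cpa3, Mcpt4, Tpsb2, Tpsab1, Cma1 and Fcer1a), and the remaining one, Ms4a2, gave 1 count in knockout replicate 1. Genes of other leukocytes were mixed. In the lymphocyte list Cd247 gave 167 to 215 counts, Lck 4 to 17 and Cd79a 12 to 15, while the T cell receptor gene Cd3e gave 1 to 5, and the B cell gene Ms4a1 and the natural killer gene Ncr1 none. In the dendritic cell list Zbtb46 gave 19 to 55 counts and Siglech 7 to 12, while Clec9a gave 6 or 7 and Flt3 0 to 2. Several of these levels equal or exceed those of low macrophage members, such as Spi1 at 5 to 16 and Cx3cr1 at 11 to 14 counts. Of 8 markers that set macrophages of the exocrine stroma apart, most gave few counts or none. Mrc1 was low but present, with 9 and 22 counts in the controls and 6 and 5 in the knockouts, much like Spi1. Cd163 gave 0 counts in 2 libraries and 2 and 4 in the others, Clec10a was at 0 in all 4, and Mgl2, Timd4, Cbr2 and Folr2 gave at most 7 counts. Lyve1, which lymphatic and other endothelial cells also express, gave 123 to 185 counts.

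Per kilobase of exon, levels of the 31 genes ranged widely. Lengths were the merged exons of GENCODE M21, so a gene with many rare transcripts, such as Ptprc, may be set too low. Apoe, a lipid carrier that several other cell types also make, stood highest at 27.9 ± 2.60 CPM per kilobase in control islets (SD, n = 2). Ctss, the lysosomal protease cathepsin S, followed at 19.1 ± 1.80, and C1qa at 11.1 ± 1.15. Legumain (Lgmn), at 7.52 ± 0.0935, Fcer1g at 7.28 ± 2.73 and Lyz2 at 6.88 ± 0.702 did not differ beyond their spread. Mpeg1 stood at 5.93 ± 0.761 and C1qb at 4.81 ± 1.97. At the other end were Mrc1 (0.267 ± 0.141), Fcgr1 (0.187 ± 0.20), Trem2 (0.0549 ± 0.0439) and Cd163 (0.0217 ± 0.0306). On this scale Apoe exceeded 89.2% of all tested genes and Ctss 79.7%, while Csf1r exceeded 34.5% and Adgre1 17.0%.

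**Figure D1:**
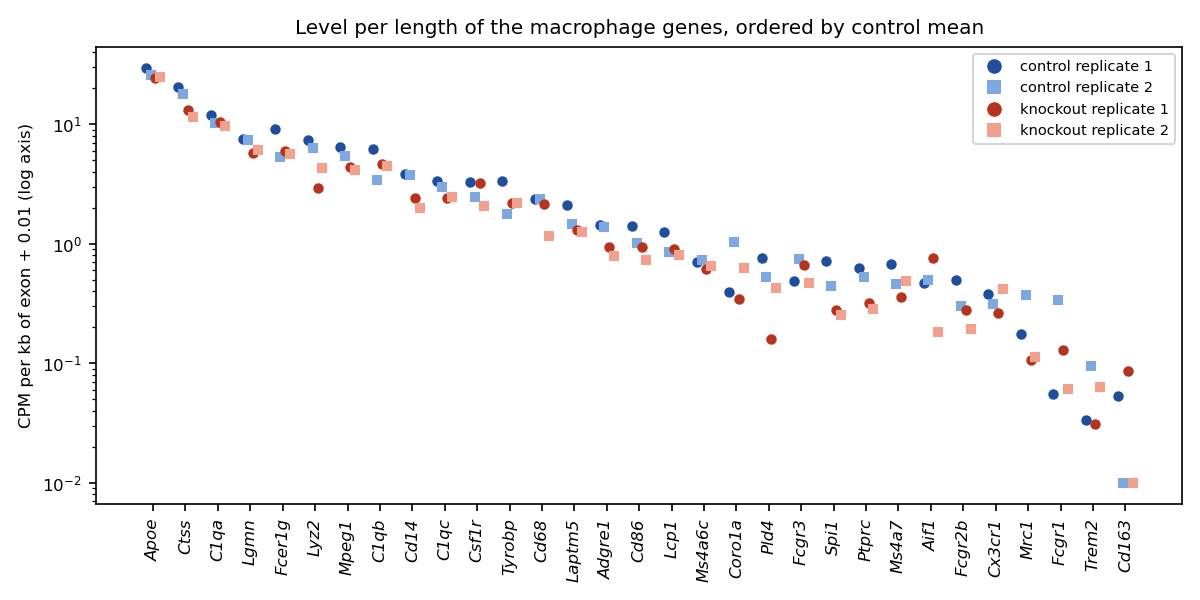
Level of each of the 31 macrophage genes in CPM per kilobase of exon, with 0.01 added, on a log axis. Each point is 1 library, genes are ordered by their control mean, and Apoe, Ctss and C1qa lead while Trem2 and Cd163 lie at the low end.

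As a sum, the macrophage genes were lower in each knockout library than in each control library, and no single gene passed the threshold. Their summed level was 269.5 and 228.1 CPM in control replicates 1 and 2 and 196.3 and 184.8 CPM in knockout replicates 1 and 2, so the knockout mean was 76.6% of the control mean. Without Apoe the sums were 205.9 and 172.3 against 143.7 and 131.2 CPM. Of the 31 genes, 26 had enough counts to be tested. All 26 were negative in log2 fold change, knockout against control, and their median was -0.46, while 49.4% of the 16924 tested genes were negative and their median was 0.003. The negative values ran from -1.20 for Pld4 to -0.04 for Cx3cr1. Spi1 entered the test only through its control counts, which fixes its direction in part. Pld4 and Fcgr2b passed the minimum count in 2 control libraries but 1 knockout library, so part of this limit holds for them too. The counts of negative genes thus describe the 26 and not the list.

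Over all 31 genes, knockout values were both below the lower control value for 17 (54.8%) and both above the higher one for 0. The groups overlapped for the other 14. Among the 26 tested members alone the counts were 16 and 0, against 15% and 15.3% of all tested genes. None of the 26 was called by edgeR's quasi-likelihood test at an adjusted p under 0.05 (background 0.00591%, which is Tspan7 alone), nor by DESeq2 or limma-voom. The adjusted p was 0.9997 for every one of the 26. At an unadjusted p under 0.05, 6 of the 26 were lower, against 1.96% of all tested genes, and 0 were higher, against 1.55%. These 6 were Ptprc, Ctss, Lyz2, Cd14, Mpeg1 and Adgre1. Control replicate 1 held the highest level for 21 of the 26, and without it the median was -0.31. Knockout replicate 2 was lowest for 14 and knockout replicate 1 for 9.

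**Figure D2:**
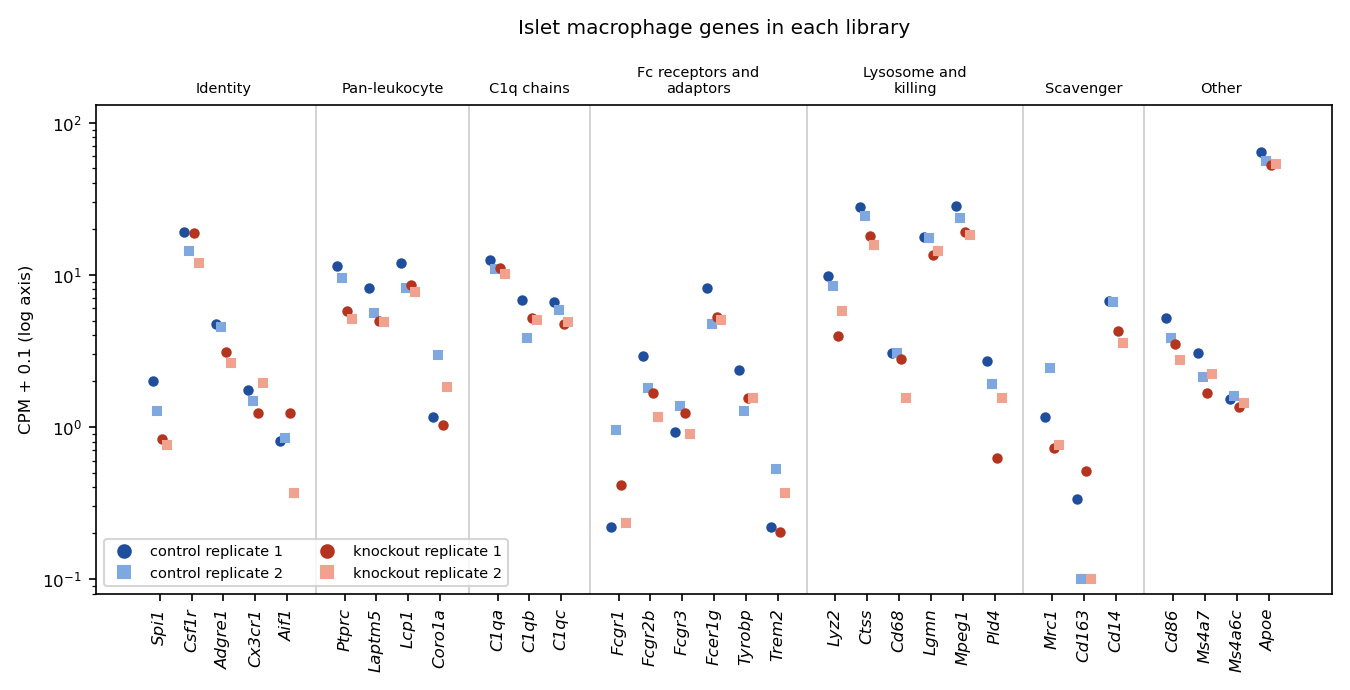
Level of each of the 31 genes in CPM, with 0.1 added, on a log axis, grouped by role; each point is 1 library. For Ptprc, Ctss, Lyz2 and Cd14 both knockout libraries lie below both control libraries, while for Csf1r, C1qb and Cx3cr1 the groups overlap.

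Genes that define the macrophage lineage differed in where the knockout libraries lay. Spi1, which encodes PU.1, gave 16 and 11 counts in the controls against 7 and 5 in the knockouts. Pooled, this was 46.2% of control (counting interval 21.3% to 94.4%). Its log2 fold change was -1.11 ± 0.53 (SE). Adgre1, the adhesion receptor known as F4/80, measured 4.61 and 4.46 CPM in control and 3.01 and 2.52 CPM in knockout islets, or -0.70 ± 0.30. The groups were apart for both genes. Csf1r, the receptor for the growth factors Csf1 and Il34, measured 18.9 and 14.1 CPM in control and 18.7 and 11.9 CPM in knockout islets. The libraries interleaved, with replicate 1 above replicate 2 in each group, and the log2 fold change was -0.10 with a 95% confidence interval (CI) from -0.69 to 0.49. Its sign turned without control replicate 1 (0.12) and without knockout replicate 2 (0.18). Csf1r shares 873 of its 5774 exon bases with Hmgxb3 on the opposite strand, and the use of strand in counting is not given in the sources used here. Hmgxb3 had 379 and 469 counts in the controls and 529 and 276 in the knockouts, and its part in the Csf1r counts was not tested. The fractalkine receptor gene Cx3cr1 gave 14 and 13 against 11 and 14 counts (-0.04, CI -1.09 to 1.01). It turned to 0.09 without control replicate 1 and to 0.29 without knockout replicate 1. Aif1, which encodes the actin-binding protein IBA1, was too low to test at 6 and 7 against 11 and 2 counts.

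Among genes shared by all leukocytes, Ptprc stood furthest apart. It encodes CD45, the receptor phosphatase of blood cells, and measured 11.2 and 9.46 CPM in control and 5.71 and 5.04 CPM in knockout islets. Pooled over libraries it was 52.6% of control (counting interval 40.5% to 67.8%), and the log2 fold change was -0.94 ± 0.24. With 1 library left out the log2 fold change ran from -1.06 to -0.81. Laptm5, a lysosomal membrane protein of blood cells, measured 8.05 and 5.53 against 4.88 and 4.77 CPM (-0.48 ± 0.29), and this was -0.20 without control replicate 1. The actin-bundling gene Lcp1 measured 11.8 and 8.08 against 8.52 and 7.56 CPM (-0.30 ± 0.26). Control replicate 2 lay between the knockout libraries for Lcp1, and its value was -0.01 without control replicate 1. Coro1a, another actin regulator, gave 9 and 27 against 9 and 13 counts, and its sign turned without control replicate 2 (0.28).

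The C1q chains form the recognition unit of the classical complement pathway, and macrophages are their main source in many tissues. C1qa measured 12.4 and 10.7 CPM in control and 10.9 and 10.1 CPM in knockout islets. C1qb measured 6.74 and 3.72 against 5.09 and 4.90 CPM. The control libraries of C1qb lay above and below both knockout libraries. C1qc measured 6.51 and 5.74 against 4.67 and 4.77 CPM, and its groups did not overlap. The log2 fold changes were -0.14 (CI -0.62 to 0.34) for C1qa, -0.06 (-0.84 to 0.72) for C1qb and -0.37 (-0.98 to 0.24) for C1qc. C1qb turned to 0.42 without control replicate 1. Summed, the chains gave 25.7 and 20.2 CPM in control and 20.7 and 19.8 CPM in knockout islets, an overlap through control replicate 2. The C1q genes are made by most tissue macrophages, as is Ptprc, and whether the difference in Ptprc exceeds that in C1q was not tested.

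Fc receptors, the adaptors they signal through and Trem2 form a group of 6 genes, and the receptor genes had few counts. Fcer1g, the gamma chain that carries signals of activating Fc receptors, measured 8.05 and 4.68 CPM in control and 5.19 and 4.90 CPM in knockout islets (-0.32 ± 0.32). Tyrobp, the adaptor DAP12, measured 2.25 and 1.17 against 1.45 and 1.46 CPM (-0.22 ± 0.47). For both adaptors control replicate 1 was highest and control replicate 2 lowest, and without control replicate 1 the values turned to 0.11 and 0.31. The inhibitory receptor gene Fcgr2b gave 24 and 16 against 15 and 8 counts (-0.76 ± 0.46). This was the only one of the 6 genes whose libraries did not overlap. It stood at -0.35 without control replicate 1. The activating receptor gene Fcgr3 gave 7 and 12 against 11 and 6 counts (-0.11 ± 0.53), and turned to 0.24 without control replicate 2 and to 0.11 without knockout replicate 2. The high-affinity receptor gene Fcgr1 gave 1 and 8 against 3 and 1 counts, and Trem2, a lipid receptor that pairs with DAP12, gave 1 and 4 against 1 and 2. Neither could be tested, and their counting intervals ran from 10.4% to 166% and from 9.69% to 321% of control. Fcgr2b and Fcgr3 have closely related sequences, so the split of their reads is uncertain.

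Genes of lysosomal digestion and killing were below control in both knockout libraries for all 6 listed members, against 15% of all tested genes. Ctss, the protease that trims the invariant chain from class II molecules, measured 27.7 and 24.2 CPM in control and 17.8 and 15.5 CPM in knockout islets. Its log2 fold change was -0.64 ± 0.18, from -0.74 to -0.54 with 1 library left out. The pore-forming protein gene Mpeg1 measured 28.04 and 23.4 against 18.9 and 18.0 CPM (-0.48 ± 0.17). Lyz2, the lysozyme of macrophages, measured 9.70 and 8.40 against 3.84 and 5.70 CPM (-0.93 ± 0.28), from -1.23 to -0.66 with 1 library left out. The near-copy of Lyz2, Lyz1, had at most 2 counts in any library. Lgmn, an asparagine-specific protease, measured 17.6 and 17.3 against 13.4 and 14.2 CPM (-0.34 ± 0.18). Its libraries agreed closely within each group. Pld4, an exonuclease that degrades single-stranded nucleic acids in endolysosomes, gave 22 and 17 against 5 and 11 counts. Its value of -1.20 ± 0.55 ran from -2.05 without knockout replicate 2 to -0.58 without knockout replicate 1. The lysosomal glycoprotein gene Cd68 gave 25 and 28 against 26 and 11 counts (-0.48 ± 0.40). Knockout replicate 1 was close to control for Cd68, and the value was -0.14 without knockout replicate 2. Summed, the 6 genes gave 88.6 and 78.1 CPM in control and 57.1 and 56.3 CPM in knockout islets, or 68.0% of control.

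Of the scavenger and pattern receptors, Cd14 alone was tested. It encodes a co-receptor for lipopolysaccharide and measured 6.63 and 6.48 CPM in control and 4.15 and 3.45 CPM in knockout islets (-0.78 ± 0.27), from -0.92 to -0.66 with 1 library left out. The mannose receptor gene Mrc1 gave 9 and 22 counts in the controls and 6 and 5 in the knockouts. The pooled level was 36.9% of control (counting interval 16.7% to 75.4%). Its groups did not overlap, and the control libraries differed from each other more than the knockout libraries did. Cd163, a receptor for haemoglobin bound to haptoglobin, gave 2 and 0 against 4 and 0 counts, too few for a comparison.

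The remaining 4 members had log2 fold changes from -0.52 to -0.17. Cd86, a co-stimulatory ligand for T cells, measured 5.09 and 3.72 CPM in control and 3.43 and 2.65 CPM in knockout islets (-0.52 ± 0.33), and -0.28 without control replicate 1. Ms4a7 and Ms4a6c encode membrane-spanning proteins of the MS4A family. Ms4a7 gave 25 and 19 against 15 and 16 counts (-0.44 ± 0.40), with overlap in CPM, and stood at -0.15 without control replicate 1. Ms4a6c gave 12 and 14 against 12 and 10 counts (-0.18 ± 0.44). It shares 1088 of its 2050 exon bases with BE692007 on the opposite strand, which gave 5 to 11 counts, and its near-copies Ms4a6b and Ms4a6d gave 3 to 10. Apoe measured 63.7 and 55.8 against 52.6 and 53.6 CPM (-0.17 ± 0.14), a small difference although the libraries did not overlap.

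**Figure D3:**
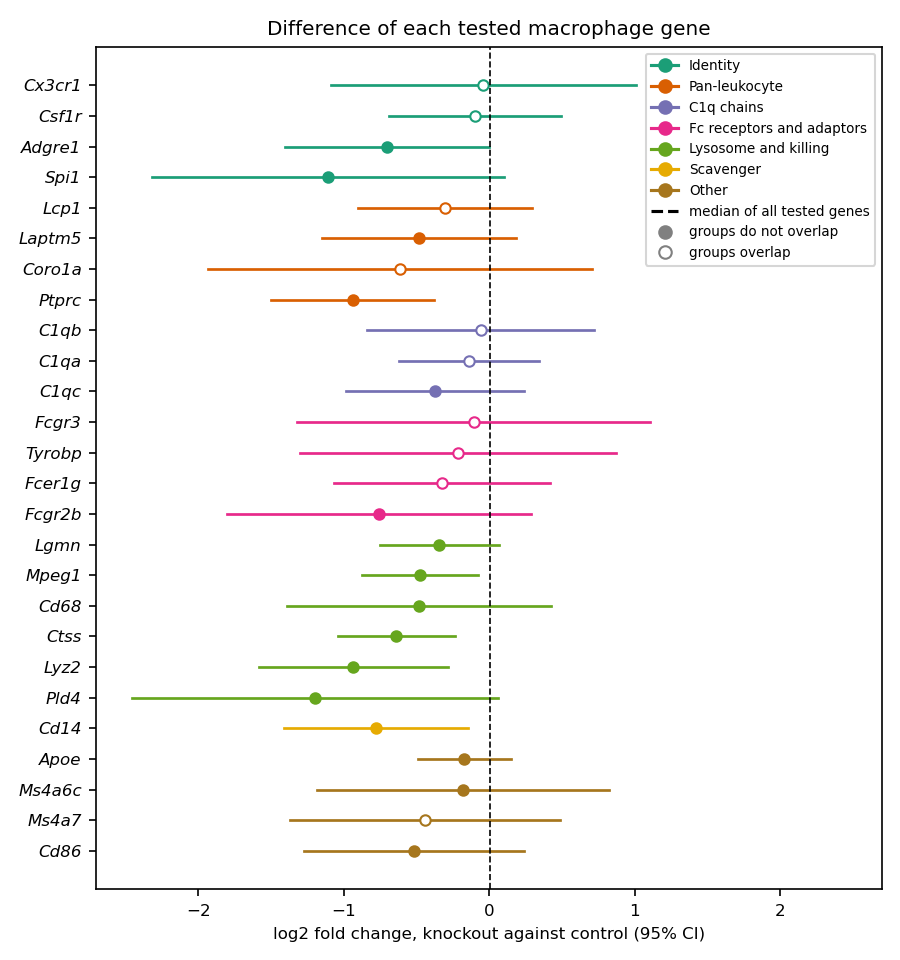
Log2 fold change of the 26 tested macrophage genes, knockout against control, with 95% confidence intervals, coloured by role; filled points mark genes whose libraries do not overlap between groups. All points lie left of the dashed line, the median of all tested genes, and the intervals of Ptprc, Ctss, Lyz2, Cd14, Mpeg1 and Adgre1 end below 0.

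Shares within the counts of the 31 genes were compared next. Ptprc took 4.17% and 4.15% of all counts of the 31 genes in control libraries and 2.91% and 2.73% in knockout libraries. Lyz2 took 3.60% and 3.68% against 1.96% and 3.08%, and Ctss 10.3% and 10.6% against 9.05% and 8.39%. On the other side, C1qa took 4.61% and 4.71% against 5.56% and 5.45%, and Apoe 23.6% and 24.5% against 26.8% and 29.0%. The shares of Mpeg1 (9.63% to 10.4%) and Lgmn (6.54% to 7.68%) varied less. These shares add to a fixed total, so a lower share of some genes raises that of others.

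Myeloid genes outside the 31 were mostly below control as well. Of 56 further genes, 39 were tested, of which 31 were negative, and the median was -0.39. The groups did not overlap for 14 of the 39, with the knockouts lower in each, against 15% of all tested genes. No gene of the list passed, and 3 were lower at an unadjusted p under 0.05, against 1.96% of all tested genes. Cd53, a leukocyte tetraspanin, gave 29 and 34 counts in the controls and 12 and 12 in the knockouts (-1.32 ± 0.37). Arhgap30 gave 20 and 21 against 8 and 6 (-1.48 ± 0.43). Ncf1, a subunit of the phagocyte oxidase, gave 19 and 23 against 13 and 4 (-1.26 ± 0.49). The receptor gene for fungal glucans, Clec7a, gave 48 and 26 against 23 and 14 (-0.96 ± 0.43). Summed, the 56 genes stood at 474.6 and 471.1 CPM in control and 440.7 and 440.5 CPM in knockout islets, and many of them, such as Lyn and Runx1, are not restricted to macrophages.

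Features by which islet macrophages differ from stromal ones, high class II and CD11c, were read from 8 genes. Of these, Cx3cr1, Lyz2 and Cd68 are also among the 31. Dendritic cell genes were detected in these libraries as well, and the part of dendritic cells in these levels was not tested. All 8 were negative (median -0.44), against 49.4% of all tested genes, and both knockout libraries were below both control libraries for 7, against 15%. The class II chain gene H2-Aa measured 65.5 and 57.1 CPM in control and 41.0 and 34.5 CPM in knockout islets (-0.70 ± 0.16), and its partner chain gene H2-Ab1 measured 21.7 and 18.2 against 17.3 and 13.7 CPM (-0.35 ± 0.20). Cd74, the invariant chain that Ctss trims, measured 118.0 and 96.7 against 83.3 and 79.9 CPM (-0.39 ± 0.15). H2-Eb1 measured 38.7 and 26.2 against 23.2 and 22.0 CPM (-0.52 ± 0.21). Itgax, the CD11c gene, was closer to control at 4.73 and 4.14 against 3.84 and 3.98 CPM (-0.18 ± 0.29). For the 8 stromal-type genes, which include Mrc1 and Cd163, only Lyve1 had enough counts to be tested (-0.31 ± 0.24, with overlap).

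Ligands that maintain, attract or engage macrophages showed no common direction. Of 8 tested ligand genes 5 were negative and 3 positive, with a median of -0.07. Sums over the 9 listed genes were 604.4 and 610.9 CPM in control and 586.8 and 593.6 CPM in knockout libraries. Most of each sum came from Cd47 (283.2 to 290.1 CPM) and App (223.7 to 256.9 CPM), so it says little of the other ligands. Csf1, a growth factor that binds Csf1r, measured 16.9 and 21.5 CPM in control and 20.8 and 14.7 CPM in knockout islets (-0.11 ± 0.22). Its libraries overlapped, as did those of the receptor. The alternative ligand Il34 gave 7 and 12 against 13 and 12 counts (0.46 ± 0.48), with both knockout libraries above both control libraries in CPM. Of the 8 tested ligand genes, 2 had both knockout libraries below both control libraries, against 15% of all tested genes. For another 2 they lay above, against 15.3%. Pros1, a bridge between dying cells and phagocyte receptors, measured 13.4 and 16.9 against 10.3 and 7.95 CPM (-0.72 ± 0.23), and Tgfb1 measured 10.3 and 13.3 against 9.76 and 5.97 CPM (-0.57 ± 0.28). Complement genes other than C1q had 5 of 13 tested values negative and 8 positive (median 0.04), with sums over the 17 listed genes of 163.5 and 167.1 CPM in control and 153.1 and 144.0 CPM in knockout libraries. Serping1, the inhibitor of the C1 proteases, measured 58.2 and 54.7 against 46.2 and 38.2 CPM (-0.42 ± 0.15). None of these genes passed over all genes.

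Some lists of other genes were also lower in sum in both knockout libraries, and others were not. The 37 tested genes of the interferon response held 36 negative values, a median of -0.76 and 31 genes with both knockout libraries below both control libraries, against 15% of all tested genes. Irf7, its amplifying transcription factor, measured 16.1 and 13.3 CPM in control and 6.23 and 5.04 CPM in knockout islets. The summed level of the 40 listed interferon genes was 900.7 to 948.2 CPM in control and 555.0 to 671.1 CPM in knockout libraries. Stellate and pericyte genes had 7 of 10 tested values negative (median -0.41). Their sums were 256.2 to 299.4 CPM in control against 194.1 to 242.3 CPM in knockout libraries. Knockouts were lower without overlap for 5 of these 10 genes and higher without overlap for 2, against 15% and 15.3% of all tested genes. Endothelial genes had 9 of 11 negative (median -0.25), with sums of 570.9 to 589.0 against 488.6 to 564.2 CPM. Of these 11 genes, 8 were lower in knockouts without overlap and 0 were higher without overlap. The tested macrophage genes gave 16 and 0 of 26, so a lower level without overlap was not particular to them. The matricellular gene Sparc stood at -0.65 ± 0.16, the collagen gene Col3a1 at -0.68 ± 0.22 and the vascular gene Egfl7 at -0.91 ± 0.24. The part of these lists, and of the ligand, complement, duct and acinar lists, in the macrophage result was not tested.

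Carry-over of exocrine tissue varied most between libraries and in another order. Summed acinar genes measured 2889 and 70.1 CPM in control replicates 1 and 2 and 1296 and 6108 CPM in knockout replicates 1 and 2. The lowest and highest acinar libraries were thus control replicate 2 and knockout replicate 2, while the macrophage sums of those libraries were 228.1 and 184.8 CPM. Duct genes were lower in sum in both knockout libraries, with 4 of 7 tested values negative (median -0.06) and sums of 428.2 and 602.3 CPM in control against 398.4 and 367.3 CPM in knockout libraries. The 7 islet hormone genes had a median of 0.04, with sums of 20524 to 24077 CPM in control and 20680 to 24023 CPM in knockout libraries. Lymphocyte genes summed to 22.8 to 26.9 CPM in control and 26.0 to 28.6 CPM in knockout libraries, mostly from Cd247. This sum therefore says little of the other genes on the list. Of its tested genes, Cd247 stood at 0.25 ± 0.19, Lck at -0.53 ± 0.61 and Cd79a at 0.16 ± 0.43. The 2 tested dendritic cell genes, Zbtb46 and Siglech, stood at -0.19 ± 0.43 and -0.61 ± 0.48. The 8 listed dendritic cell genes summed to 6.74 and 9.35 CPM in control and 6.85 and 4.51 CPM in knockout libraries, with overlap. Among those too low to test, Xcr1 gave 5 and 4 against 0 and 0 counts and Ccr7 gave 4 and 8 against 0 and 0. Clec9a gave 7 and 7 against 6 and 6, and Flt3 gave 0 and 2 against 1 and 1. Schwann cell genes had 2 of 3 tested values negative (median -0.21), and the 1 tested red cell gene, Alas2, stood at 0.82 ± 0.40.

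**Figure D4:**
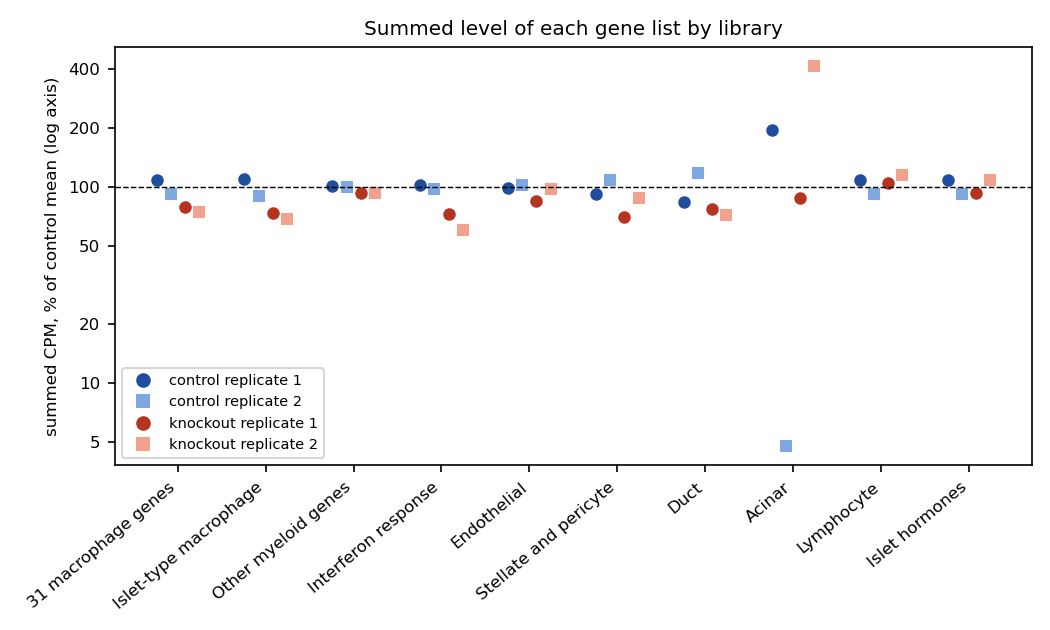
Summed CPM of 10 gene lists in each library, as a percentage of the list's control mean, on a log axis; each point is 1 library. Of the 10 lists plotted, both knockout libraries lie below both control libraries for the macrophage, islet-type macrophage, other myeloid, interferon, endothelial, stellate and duct lists, and the acinar list spreads from 70.1 to 6108 CPM across libraries of both groups.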

How the data were processed

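RNA-seq libraries of mouse islets were deposited by the authors as raw counts per Ensembl gene for 4 libraries. HISAT2 and featureCounts on GRCm39 are listed in the submitters' processing notes. The sources used here give no versions, annotation release, strand setting or rule for multi-mapping reads. Per the labels' protocols, libraries were made with a directional kit. Symbols came from GENCODE M21 (GRCm38) for 52403 of 52636 identifiers, exon lengths from the same release, and promoter sequences from RefSeq (GRCm38.p6). Because builds differ, coordinates are given for these reference sequences alone.

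Counts were fitted over all genes in edgeR 4.0.16 (R 4.3.3) with filterByExpr at a minimum count of 10 (16924 genes), scaling by the trimmed mean of M-values and the two-sided quasi-likelihood F test (robust, without covariates). The threshold for a call was an adjusted p under 0.05 (Benjamini-Hochberg). CPM values are scaled in the same way. SE and CI come from this fit. Knockout levels as a percentage of control carry exact binomial intervals on pooled counts, for counting error only. DESeq2 1.42.0, limma 3.58.1 (voom), other scalings and filters, the replicate block and each library left out were alternatives. The script was tested on simulated data. Every pair of libraries differed by more than sampling, and each was counted as 1 sample. In chi-square units per degree of freedom, the control pair stood at 12.9, the knockout pair at 13.3 and pairs across groups at 7.08 to 20.0. Such differences do not show that the libraries come from separate animals.

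The members and gene lists were chosen with earlier results of these data known. All 31 members are described. Of every other list up to 4 genes with the smallest p were eligible to be named, with genes at 0 in every library where the list marked a cell type. Csf1, Cd47, App, Itgax, Hmgxb3, Lyz1, Ms4a2, Flt3, Clec9a, Xcr1, Ccr7, Cd3e, Folr2, Mgl2, Timd4, Cbr2, Lyn, Runx1, BE692007 and the Ms4a6c near-copies were named outside that rule, after their values were seen.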

Additional observations from a re-analysis of the deposited data

How the results depend on the processing

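The macrophage genes kept a negative median under every alternative other than the crossed pairing, for which it was not computed, from -0.60 without control replicate 2 to -0.31 without control replicate 1, while the median of all tested genes lay between -0.01 and 0.04. None of them passed in any alternative. Their adjusted p values ran from 0.199 (Ptprc with no low-count filter) to 1 over 286 comparisons of single genes with alternatives, of which 275 kept their direction. The 11 that reversed were C1qb with limma-voom (0.015) and 10 with a library left out. Without control replicate 1 these were C1qb, Csf1r, Cx3cr1, Fcer1g and Tyrobp (0.42, 0.12, 0.09, 0.11 and 0.31), without control replicate 2 Coro1a and Fcgr3 (0.28 and 0.24), without knockout replicate 1 Cx3cr1 (0.29), and without knockout replicate 2 Csf1r and Fcgr3 (0.18 and 0.11). The lowest values of the same genes with 1 library left out were -0.43 for C1qb, -1.14 for Coro1a, -0.46 for Csf1r, -0.40 for Cx3cr1, -0.67 for Fcer1g, -0.40 for Fcgr3 and -0.62 for Tyrobp. The cause was not tested.

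Over all genes the number called was 1 and rose to 6 with DESeq2 and to 62 with no low-count filter, and with 1 library left out it ran from 1 to 48 (48 without control replicate 1, 2 without control replicate 2). The replicate block called 6. The labels do not say that replicate numbers pair the samples, so the numbers were not taken to pair them. Same-numbered libraries deviated in opposite directions (correlation of deviations -0.30). With 2 libraries per group the crossed pairing must give the same value with the other sign (0.30). The correlation therefore cannot decide whether the samples are paired. With the crossed pairing as a block, chosen after that correlation was seen, 2 genes were called. The block changed no call of a macrophage gene. At 7855665 to 9377220 counts per library, 5 of the 31 genes were too low to test.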
